A study of Arabidopsis thaliana with 14 samples.

Results

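The transcripts described here gave a low array signal in both tissues at the chalazal pole of the developing Arabidopsis seed, the chalazal endosperm and the chalazal seed coat, each relative to the matching tissue outside the chalaza. A probe set, the group of short probes that reports a transcript on the array, was included if its mean signal plus 32 in the peripheral endosperm was at least 4 times that in the chalazal endosperm, its mean plus 32 in the general seed coat was at least 4 times that in the chalazal seed coat, and its means in the peripheral endosperm and the general seed coat both reached 500. This held for 158 of the 22746 probe sets that are not controls. Of the 158, 71 name 1 gene, 1 names several and 86 carry no gene name here, and these 87 are described by counts and ranges. Since the members were chosen on the 8 arrays of those 4 tissues, their levels and ratios there are a description and carry no test.

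The study measured bending-cotyledon seeds of Arabidopsis Ws-0 on 14 Affymetrix ATH1 arrays, with 2 biological replicates in each of 7 groups, to map transcripts to the parts of the seed. The groups were serial sections of whole seeds and 6 compartments cut out by laser from fixed, paraffin-embedded seeds: embryo proper, micropylar endosperm, peripheral endosperm, chalazal endosperm, general seed coat and chalazal seed coat. All groups share the accession, growth in continuous light at 20 °C, plants 38 to 46 days old and embryos with cotyledons of 100 to 140 µm, and the labels name no other allele and no agent. Between 2 and 5 ng of RNA (micropylar endosperm) or 5 and 6 ng (all other groups) was amplified for an array. For the micropylar endosperm, whose replicates are numbered 1 and 3, a cell type field of the labels says embryo proper, and the other labels, followed here, say micropylar endosperm. Signal is given as linear intensity, and 2 arrays a group limit the precision of every value. In such bulk samples, fewer cells of a type and less RNA per cell cannot be told apart.

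The chalazal pole is where the vascular strand of the funiculus ends and maternal nutrients enter the seed. The chalazal endosperm is a multinucleate pocket above that entry point, and the chalazal seed coat is the maternal tissue beneath it. The peripheral endosperm lines the rest of the seed, becomes cellular as the embryo grows and persists as a living cell layer in the mature seed, and the general seed coat derives from the maternal integuments and forms pigment and mucilage layers. Endosperm and seed coat come from different generations, fertilised and maternal, so the chosen transcripts share a low relative signal at the chalazal pole and not a tissue of origin.

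Replicate arrays correlated at r = 0.867 (peripheral endosperm) to 0.967 (embryo proper) over the 14765 probe sets bright enough to be tested, on the log2(signal + 32) scale. Each array's 2% trimmed mean is 500, and array medians lay between 99.1 and 188. Markers of the compartments, taken from an earlier description of these arrays, summed highest in their own tissue. The 6 general seed coat markers summed to 12260 on micropylar endosperm replicate 3 and 3248 on replicate 1, which is 8.1% and 2.15% of their sum in the general seed coat. The 6 embryo markers summed to 3299 and 562 on the same arrays, 11.8% and 2.01% of their sum in the embryo proper.

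The label of the set is a relative statement, fixed by the choice of members, and does not mean absence. The median signal over the 158 was 4128 in the peripheral endosperm against 142 in the chalazal endosperm, and 1919 in the general seed coat against 235 in the chalazal seed coat. In the chalazal endosperm 61 had a mean under 100 and 38 a mean of at least 500, and in the chalazal seed coat 36 and 42 did. For 79 probe sets all 4 chalazal arrays stayed under 500. The highest of the 6 compartments by mean was the peripheral endosperm for 53 probe sets, the general seed coat for 47, the embryo proper for 30 and the micropylar endosperm for 28. The 158 together made up 7.24% and 7.32% of the summed signal on the peripheral endosperm arrays against 0.625% and 0.519% on the chalazal endosperm arrays, and 4.4% and 3.45% on the general seed coat arrays against 0.477% and 0.608% on the chalazal seed coat arrays.

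**Figure D1:**
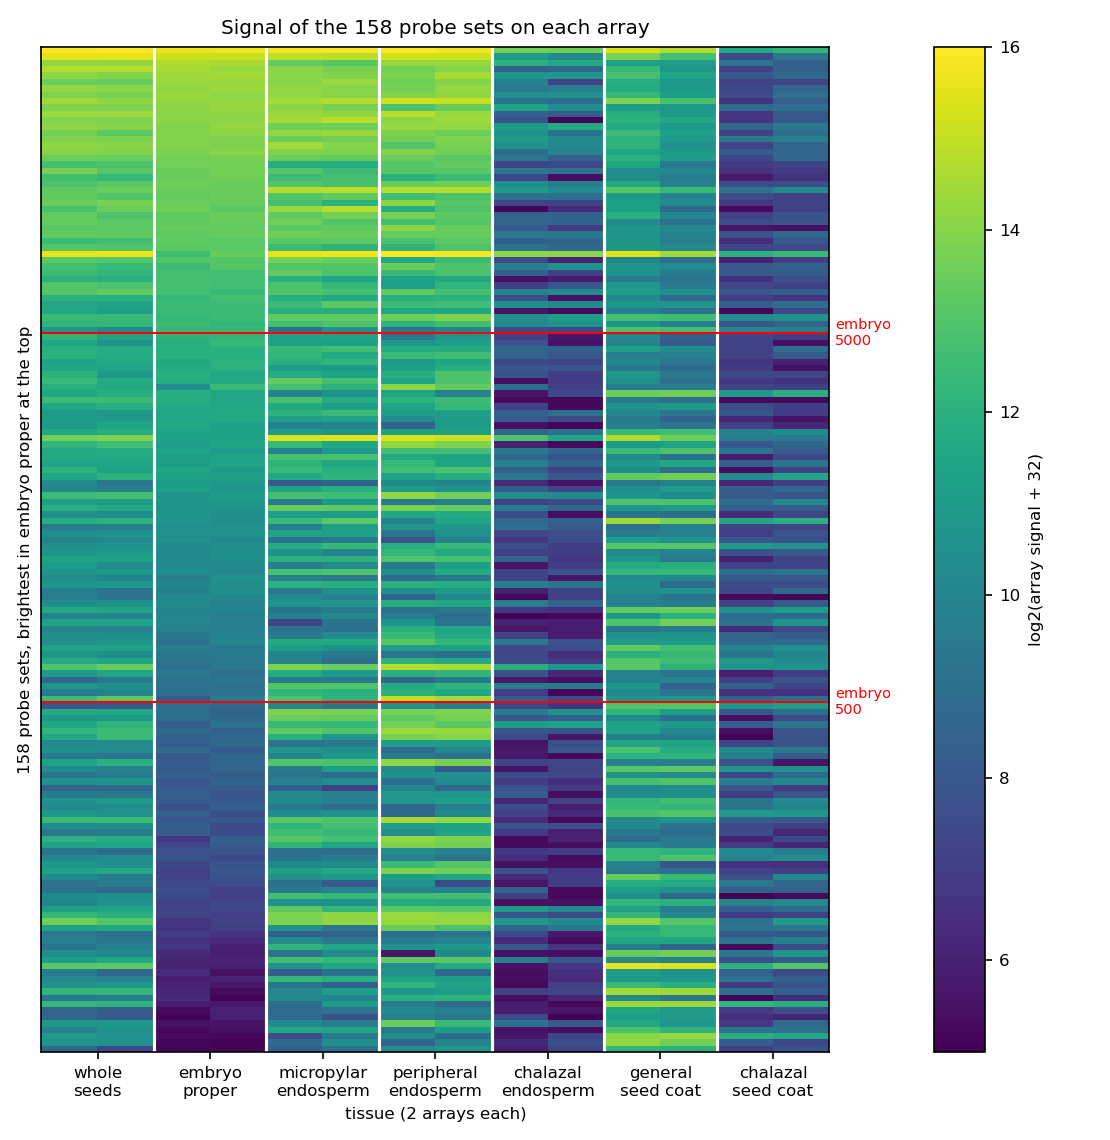
Signal of the 158 probe sets (rows, ordered by mean embryo proper signal) on the 14 arrays (columns, 2 a tissue), as log2(signal + 32) from dark (low) to yellow (high). Red lines mark embryo means of 5000 and 500, which split the rows into 45, 58 and 55 probe sets; the chalazal columns are darker than those of the matching tissue because the rows were chosen for it.

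Over the whole array, 1144 probe sets (5.03%) met the peripheral over chalazal endosperm fold with a mean of at least 500, and 445 (1.96%) met the general over chalazal seed coat fold with its minimum. Among the 158 chosen by both, the endosperm ratio ran from 4.1 to 346 with a median of 14.8, and the seed coat ratio from 4.02 to 70 with a median of 6.89. The endosperm ratio was the larger for 129 of 158. The 2 ratios ranked the members only loosely alike (Spearman's rho 0.272 across the 158, which share their arrays).

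Near the thresholds, the named members with the smallest endosperm ratios were AT5G38160 (4.1), PSBY (4.11) and AT2G15440 (4.44), and AT1G68470 (3.88), AT5G57700 (3.84) and AT4G11350 (3.82) lay just outside. For the seed coat ratio, AT3G25290 (4.04), PSBY (4.06) and AT2G26500 (4.09) lay just inside and AT3G14220 (3.98), AT1G12080 (3.95) and AT2G40480 (3.88) just outside. For the minimum in the peripheral endosperm, scpl20 (501), GH9B7 (531) and RD2 (554) lay inside and AT2G02780 (495), NCRK (473) and LPR1 (469.5) outside. For the minimum in the general seed coat, AT1G71250 (537), AT1G64800 (539) and LHCB4.2 (541) lay inside and AT1G21500 (461), AT1G54955 (427) and scpl26 (408) outside. The endosperm fold alone kept out 45 probe sets and the seed coat fold alone 457.

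**Figure D2:**
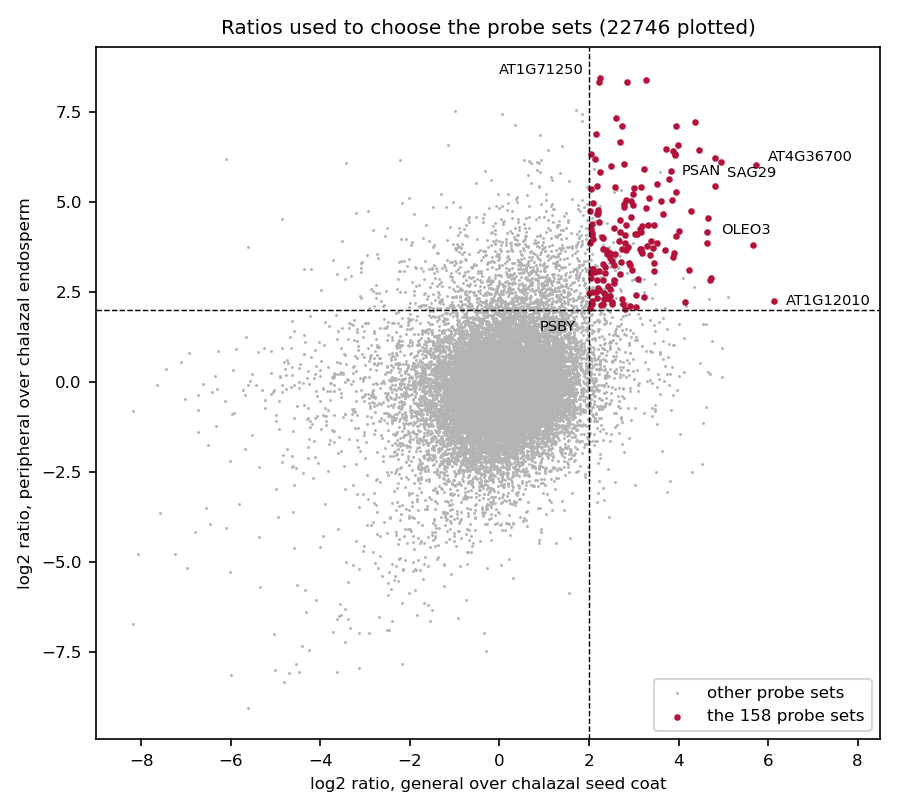
Each point is a probe set, placed by its log2 ratio of general over chalazal seed coat (horizontal) and of peripheral over chalazal endosperm (vertical), from group means plus 32. Dashed lines mark the 4-fold thresholds; the 158 chosen probe sets are red, and grey points beyond both lines missed a minimum of 500.

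Nuclear genes of photosynthesis were among the members. PSAN encodes a subunit of photosystem I on the lumen side. Its signal was 4239.7 and 5691 in the peripheral endosperm against 127 and 10.4 in the chalazal endosperm, and 1349 and 723 in the general seed coat against 23.4 and 66.5 in the chalazal seed coat. In the embryo proper PSAN read 11455 and 12680, against 5840.4 and 6976 in the micropylar endosperm. The embryo arrays were thus its brightest, and the 2 embryo replicates did not overlap those of the micropylar endosperm, but the difference did not pass the test (log2 difference 0.91, SE 0.49, adjusted p 0.22).

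PSAE-1, a stromal subunit of the same photosystem, read 11027 and 12088 in the peripheral against 1456 and 808 in the chalazal endosperm, and 3117 and 894 in the general against 148 and 162 in the chalazal seed coat. LHCB4.2, a minor antenna protein of photosystem II, had ratios of 12.7 in the endosperm and 7.13 in the seed coat, and PSBY, a small membrane protein of photosystem II, had 4.11 and 4.06. PRK, the Calvin cycle kinase that makes ribulose bisphosphate, read 15031 and 11775 in the peripheral against 1459.5 and 578 in the chalazal endosperm and 5864 and 2448 in the general against 110.0 and 472 in the chalazal seed coat. AT2G26500, which encodes a small subunit of the cytochrome b6f complex, had ratios of 26.7 and 4.09. All 6 genes had embryo means of 3767 or more, and none of them passed the test between embryo proper and micropylar endosperm (adjusted p 0.199 to 0.779, limma).

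The plastid genome's own photosystem genes were not in the set. The list of photosystem and light-harvesting genes holds 28 tested genes, and of its 8 nuclear genes 4 were members, while of its 20 plastid genes 0 were. The nuclear genes had endosperm ratios of 3.51 to 49.7 and seed coat ratios of 1.04 to 13.9, and the plastid genes 0.819 to 3.31 and 1.1 to 2.28. Among the nuclear genes left out, LHCB4.1 had an endosperm ratio of 6.06 and missed the seed coat fold at 3.8, and PSBW had 8.03 and 3.26. PRK was the only member among 6 tested genes of the Calvin cycle and rubisco list, and of 5 tested genes for chlorophyll and plastid pigments 0 were members. Since 8730 probe sets of the array name no gene here, these lists are partial. For scale, 70 of the 8133 tested genes found in the RefSeq gene table were members, and that share applies beside the count of every list named here.

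Storage transcripts were among the members. The oil body and lipid storage list had 1 member, OLEO3, among 2 tested genes. The other, SDP1, had ratios of 0.954 in the endosperm and 0.452 in the seed coat. The 1 tested gene of the seed storage protein list, PAP85, was no member. Its ratios were 4.1 and 3.96, and its means in the peripheral endosperm and general seed coat were 285 and 208. AT3G01570 and AT4G36700, described below, are on neither list. OLEO3, an oleosin that coats seed oil bodies, read 38073 and 37532 in the peripheral against 1998 and 1135 in the chalazal endosperm, and 14012 and 6893 in the general against 143 and 621 in the chalazal seed coat. A further oleosin gene, AT3G01570, read 4450 and 5927 in the peripheral endosperm and 668 and 453 in the general seed coat, and between 5.8 and 6.63 on all 4 chalazal arrays. AT4G36700, a cupin-fold protein related to vicilin storage proteins, had ratios of 64.8 in the endosperm and 52.9 in the seed coat, and the smaller of the 2 was the largest such value in the set. Its signal was 37323 and 33640 in the peripheral against 586 and 447 in the chalazal endosperm, and 14849 and 7148 in the general against 68.3 and 284 in the chalazal seed coat.

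These 3 storage genes were also bright in the embryo. OLEO3 read 36004 and 34656 in the embryo proper and 30819 and 29559 in the micropylar endosperm, and AT4G36700 read 18324 and 19327 in the embryo proper and 22463 and 26548 in the micropylar endosperm. The embryo and micropylar arrays did not separate these genes past the test, with adjusted p of 0.781 for OLEO3, 0.586 for AT4G36700 and 0.279 for AT3G01570 (limma). AT1G47540, a small cysteine-rich protein, and AT2G34700, of the Ole e 1 and extensin family, were bright in the embryo as well. AT1G47540 read 17164 and 17307 in the embryo proper, 23188 and 30151 in the micropylar endosperm and 193 and 3.54 in the chalazal endosperm. Likewise AT1G65090 and AT3G63040, for which no role is given here, had embryo means of 20424 and 11033 and chalazal seed coat means of 113 and 55.8. General seed coat replicates were far apart for AT3G63040, at 2332 and 378.

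SAG29, also named SWEET15, encodes a plasma membrane sucrose exporter, and it was the 1 member among 11 tested sugar transport genes. Its signal was 4803 and 2752 in the peripheral against 6.25 and 104 in the chalazal endosperm, and 5625 and 3912 in the general against 79.9 and 199 in the chalazal seed coat. In the embryo proper it read 34.4 and 19.8 against 592 and 306 in the micropylar endosperm, a difference that passed the test (log2 difference -2.97, SE 0.56, adjusted p 0.00124). SAG29 was thus bright on both sides of the boundary between endosperm and seed coat, and dim in the embryo. The related exporter SWEET11 shared the endosperm side with a ratio of 186, but its general over chalazal seed coat ratio was 0.503, so it was no member.

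Of 26 tested peptidase genes 3 were members, and 2 of them were brighter in the peripheral endosperm than in the general seed coat. The serine carboxypeptidase-like gene scpl48 read 27012 and 24975 in the peripheral against 4006 and 1855 in the chalazal endosperm, and 9306 and 4445 in the general against 1629 and 1557 in the chalazal seed coat. The subtilase gene SBTI1.1 read 18195 and 13610 against 125 and 125 in the same endosperm pair, and 862 and 757 against 177 and 17.1 in the seed coat pair. In contrast, scpl20 was a seed coat transcript, with 4245 and 5299 in the general against 248 and 229 in the chalazal seed coat and 450.3 and 551 in the peripheral endosperm. AT2G38870 encodes a serine protease inhibitor of the potato inhibitor I type. It read 41896 and 36038 in the peripheral against 7664 and 2894 in the chalazal endosperm and 26662 and 12366 in the general against 687 and 721 in the chalazal seed coat.

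All 4 of these genes were lower in the embryo proper than in the micropylar endosperm. The scpl48 signal was 484 and 651 in the embryo against 14804 and 11290 in the micropylar endosperm (log2 difference -4.45, SE 0.36, adjusted p 2.03e-07). SBTI1.1 read 259 and 352 against 8269 and 7496 (log2 difference -4.56, SE 0.49, adjusted p 4.64e-06). AT2G38870 read 2520.4 and 2579.8 against 43935 and 45963 (log2 difference -4.12, SE 0.36, adjusted p 5.07e-07). Groups of these 3 genes were far apart, while scpl20 was dim on both sides, at 95.9 and 70.3 against 280.5 and 315, and its call rests on a thin margin (log2 difference -1.53, SE 0.50, adjusted p 0.0413). Without embryo proper replicate 2 the adjusted p of scpl20 was 0.222, and it was 0.0599 or more when any other single array of whole seeds, embryo proper or micropylar endosperm was left out.

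Wall proteins and wall-modifying enzymes formed another part of the set. AT5G59170, an extensin-like proline-rich protein, read 19969 and 19946 in the peripheral against 1848 and 1113 in the chalazal endosperm, and 19088 and 8786 in the general against 489.6 and 2055 in the chalazal seed coat. The family 9 cellulase gene GH9C1 was an endosperm transcript, at 14825 and 12274 in the peripheral against 194 and 81.1 in the chalazal endosperm, and GH9B7 of the same family was a seed coat transcript, at 4174 and 5598 in the general against 633 and 1031 in the chalazal seed coat. These were the 2 members among 42 tested genes of wall polysaccharides and loosening. AT4G15750, from the family of pectin methylesterase inhibitors, read 4801 and 4259.5 in the general against 102 and 198 in the chalazal seed coat, and 1329 and 1679 against 29.2 and 116 in the endosperm pair. Genes of pectin methylesterases themselves were AT5G51490, with ratios of 10.3 and 5.72, and AT4G03930, with 4.5 and 6.82.

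The oxidoreductase and glycosyl enzyme list had 3 members among 57 tested genes. BGLU44, a beta-glucosidase, read 19040 and 14889 in the peripheral against 34.5 and 6.71 in the chalazal endosperm, and 2072 and 2633 in the general against 225 and 372 in the chalazal seed coat. UGT76E2, a glycosyltransferase, had ratios of 32.7 and 12.1, and GSTU16, a glutathione transferase, 43.2 and 4.56. AT4G15390, an acyltransferase of the BAHD family, read 726 and 2413 against 16.1 and 97.3 in the endosperm pair and 3357 and 3912 against 115 and 115 in the seed coat pair. The named member with the highest mean signal in the peripheral endosperm was AT5G38160, of the family of lipid transfer proteins and protease inhibitors, at 81047 and 60308 in the peripheral against 17819 and 16650 in the chalazal endosperm. ULT1, which encodes a trithorax-group regulator known from floral meristems, read 27505 and 27460 in the peripheral against 1879 and 1218 in the chalazal endosperm, and 8734 and 5563 in the general against 524 and 1114 in the chalazal seed coat. Of 31 tested genes on the transcription factor list, 15 of the cytosolic ribosome, 10 of autophagy, 10 of cell division and 13 of hormone metabolism and response, 0 were members. With 70 members among 8133 tested genes, lists this short can hold 0 members, so these counts are no result about those families.

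**Figure D3:**
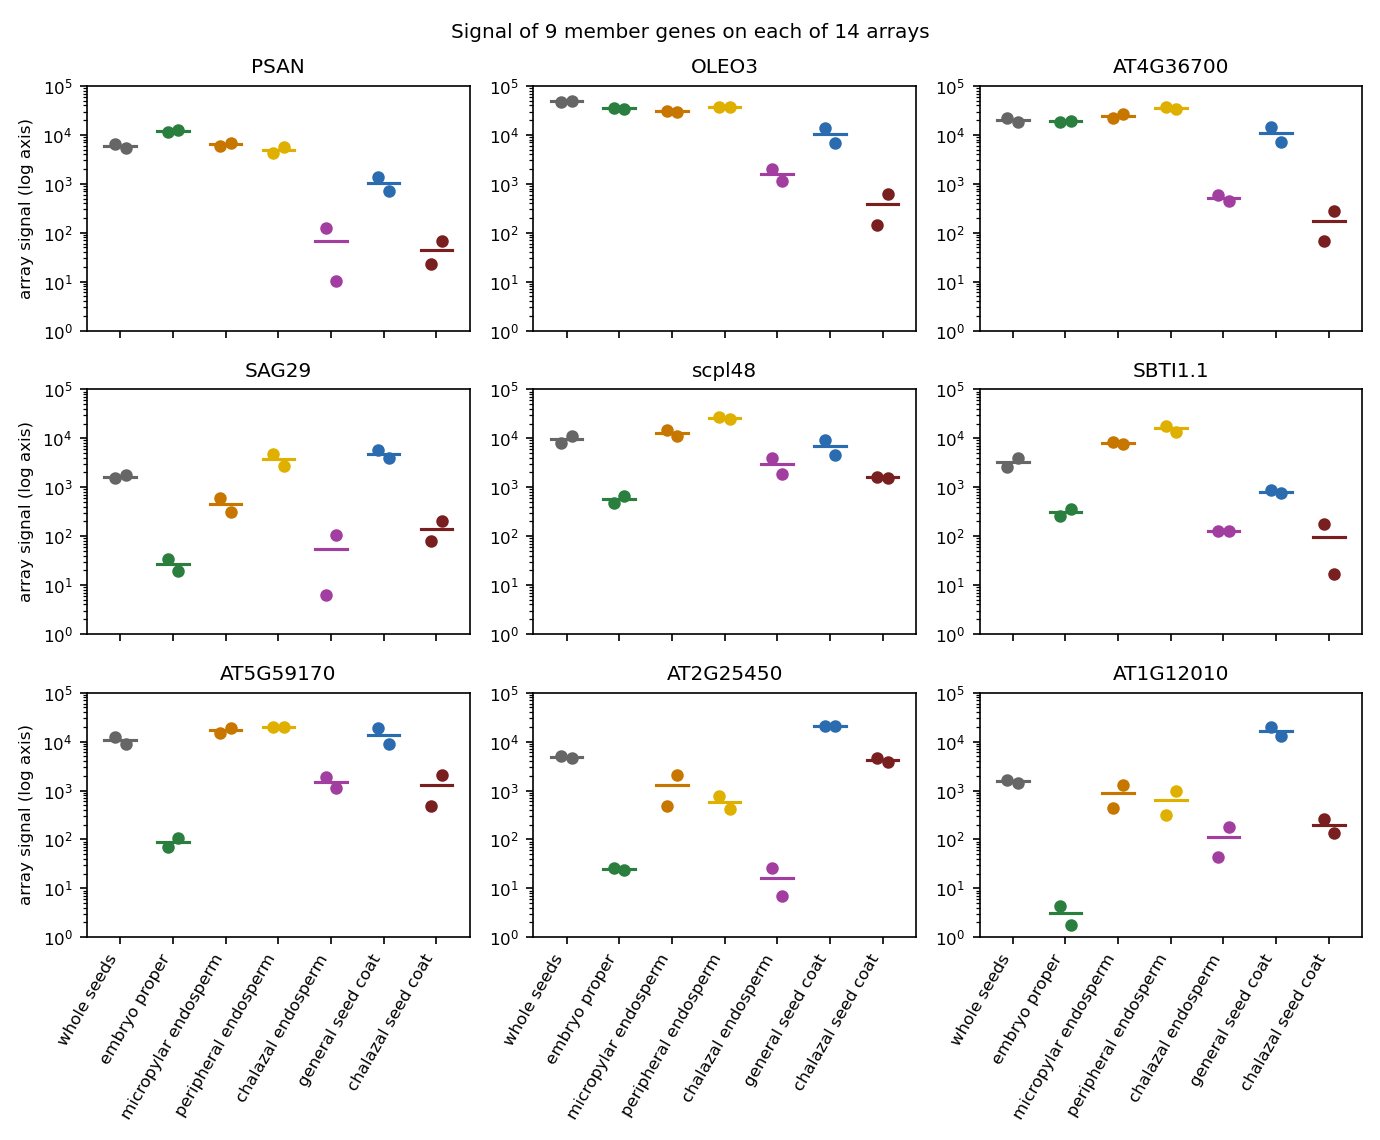
Signal of 9 member genes on each of the 14 arrays, on a log axis; points are arrays and bars the mean of 2. PSAN, OLEO3 and AT4G36700 are bright in the embryo proper and in every endosperm region but the chalazal, whereas SAG29, scpl48, SBTI1.1, AT5G59170, AT2G25450 and AT1G12010 are at or below 651 on both embryo arrays.

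The seed coat side included genes whose endosperm signal was far below their general seed coat signal. The genes of this paragraph were chosen after their values were seen. AT1G12010, of the family of ACC oxidases that form ethylene, had the largest seed coat ratio, at 19449 and 12941 in the general against 266 and 134 in the chalazal seed coat. In the peripheral endosperm it read 319 and 956 against 43 and 177 in the chalazal endosperm. AT2G25450, an oxygenase that hydroxylates butenyl glucosinolates, read 21070 and 20784 in the general against 4601 and 3741 in the chalazal seed coat, and 773 and 418 in the peripheral against 26.4 and 6.91 in the chalazal endosperm. AT2G16890, a UDP-glycosyltransferase, read 16802 and 19692 against 3887 and 3176 in the seed coat pair and 1386 and 443 against 18.1 and 123 in the endosperm pair. All 3 were at most 26.4 on both embryo arrays, and AT2G25450 and AT2G16890 were at 3176 or more in the chalazal seed coat. The 6 general seed coat markers summed on the chalazal seed coat arrays to 14.3% and 20.9% of their sum in the general seed coat. The markers differed widely in this, with general over chalazal ratios of 1.8 for ARA12, 2.3 for AT3G10320 and 3.43 for AT2G22900. A ratio of 4 was reached by 3 of the 6. ARA12 made up most of the chalazal sum, with a mean of 18263 there. The part of general seed coat RNA in the values of these genes was not tested.

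Markers of the peripheral endosperm and the general seed coat were read on each other's arrays. The 2 peripheral endosperm markers that are not members are AT3G62820 and SWEET11, with GH9C1 left out as a member. On the general seed coat arrays they summed to 4.27% and 3.35% of their sum in the peripheral endosperm. SWEET11 made up most of that signal, with means of 501 in the general and 1026 in the chalazal seed coat. On both general seed coat arrays, 1 of the 2 markers was under 100. The 6 general seed coat markers summed on the peripheral endosperm arrays to 2.51% and 3.02% of their sum in the general seed coat. Across the 158, the general seed coat mean was 30.1% of the peripheral endosperm mean at the median. For 2 members, AT1G71250 (3.16%) and GH9C1 (4.17%), it was no more than the 4.27% of the markers, and for AT2G25450 the peripheral endosperm mean was 2.85% of the general seed coat mean, under the 3.02% of the markers. Whether neighbouring tissue set the signal of these 3 genes was not tested.

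The embryo proper and the micropylar endosperm played no part in choosing the members, so the difference between them could be tested. Of the 158, 66 (41.8%) were lower in the embryo proper than in the micropylar endosperm, beside 9.09% of all 14765 tested probe sets, and 4 (2.53%) were higher, beside 8.18%. A call needed an adjusted p under 0.05 in limma and a log2 difference of at least 1, with the signal taken as log2(signal + 32). The median log2 difference of embryo proper minus micropylar endosperm was -0.73 over the members and 0.10 over all tested. Leaving out any of the 6 arrays of embryo proper, micropylar endosperm and whole seeds gave between 51 and 63 members lower in the embryo. Every member was chosen to be bright in the peripheral endosperm, and the summed markers of that tissue moved the same way. The 2 peripheral endosperm markers that are not members are AT3G62820 and SWEET11. They summed to 233 and 288 on the embryo proper arrays against 5678 and 2896 on micropylar endosperm replicates 1 and 3. The micropylar sums are 39.9% and 20.4% of that in the peripheral endosperm. SWEET11 made up most of them, with a micropylar mean of 4182 (SD 1975), so these shares speak mainly for that gene. On replicate 1, 1 of the 2 markers was under 100. The part of this marker signal in the members' counts was not tested.

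AT5G59170, the extensin-like gene, fell most among the 158. It read 68.7 and 107 in the embryo proper against 15132 and 18906 in the micropylar endosperm (log2 difference -7.16, SE 0.49, adjusted p 3.71e-08). AT1G04380, of the family of 2-oxoglutarate-dependent oxygenases, read 37.6 and 36.3 against 6358 and 5276 (log2 difference -6.40, SE 0.46, adjusted p 5.50e-08), and AT1G07280, a protein with tetratricopeptide repeats, read 5.66 and 13.1 against 3038 and 2738 (log2 difference -6.15, SE 0.49, adjusted p 1.59e-07). For these 3 genes every micropylar array read 2738 or more and every embryo array 107 or less. Unnamed members lie between these genes in the order of differences. The next genes with a name were the pectin methylesterase gene AT5G51490 (log2 difference -5.50), the GDSL lipase gene AT1G71250 (-5.32), AT4G11300 (-4.64), the microtubule-associated protein gene AT3G23090 (-4.61) and SBTI1.1 (-4.56), with adjusted p of at most 1.12e-05. GH9C1 was also lower in the embryo, at 111 and 218 against 2383 and 3184 (log2 difference -3.88, SE 0.40, adjusted p 3.41e-06), as was ULT1 by a smaller step, at 11915 and 11048 against 27957 and 29270 (log2 difference -1.32, SE 0.31, adjusted p 0.00672). Without embryo proper replicate 2 the adjusted p of ULT1 was 0.0637.

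Only 1 named member was higher in the embryo proper. The IQ-domain gene iqd21, of a family of calmodulin-binding proteins, read 2053 and 1999 in the embryo proper against 242 and 336 in the micropylar endosperm (log2 difference 2.69, SE 0.47, adjusted p 0.000636). The other 3 members that were higher carry no gene name here, and the called rises of the 4 lay between 1.36 and 2.69 on the log2 scale. Calls of 3 further named genes rested on single arrays. AT5G51950, a GMC-type oxidoreductase (log2 difference -2.75, adjusted p 0.00765), AT2G01580 (-2.65, 0.00698) and UGT76E2 (-1.77, 0.0241) were lower in the embryo, but adjusted p reached 0.1 or 0.0974 for AT5G51950 without embryo proper or micropylar endosperm replicate 1. It reached 0.0950 or 0.0788 for AT2G01580 without embryo proper replicate 2 or micropylar endosperm replicate 3, and 0.0780 to 0.172 for UGT76E2 when any single array of these 2 tissues was left out. GH9B7 and BGLU44 did not pass, with adjusted p of 0.633 and 0.188.

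**Figure D4:**
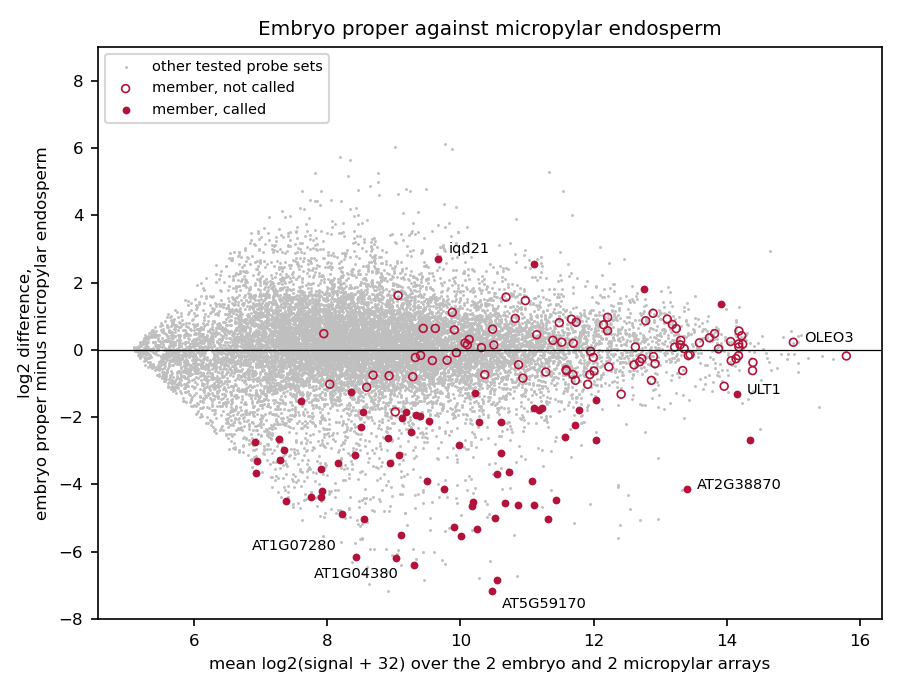
Log2 difference of embryo proper minus micropylar endosperm (vertical) against the mean log2(signal + 32) over the 4 arrays (horizontal) for the 14765 tested probe sets. Members are red, filled where called; 66 filled points lie below 0 and 4 above.

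Micropylar endosperm replicate 3 had a larger seed coat marker sum than replicate 1 (8.1% and 2.15%) and a smaller peripheral endosperm marker sum (20.4% and 39.9%). Not every marker followed these sums. The seed coat marker AT3G10320 hardly differed between the 2 replicates (mean 45.5, SD 1.38), and the peripheral endosperm sum was mostly SWEET11. Without replicate 1, 55 members were lower in the embryo and 5 higher. Of the 66 members lower in the embryo, 7 had a micropylar mean of no more than 8.1% of their general seed coat mean. That is the share the sum of the seed coat markers reaches on replicate 3. The named genes among them were AT2G25450 (2.28% on replicate 1 and 10.1% on replicate 3), AT1G12010 (2.66% and 8.17%), AT2G16890 (0.895% and 4.06%) and scpl20 (mean 6.24%). The part of seed coat RNA in these values was not tested. Without replicate 3, 54 members were lower in the embryo and 6 higher.

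Signal in the embryo divided the members. In 45 the embryo mean was at least 5000, in 58 between 500 and 5000, and in 55 under 500, and 21 of these last were under 100. By contrast, 146 of 158 reached 500 in the micropylar endosperm, and 0 were under 100 there. An embryo mean under 100 was found for 13.3% of members beside 17.9% of all tested probe sets. Means of at least 500 were found for 65.2% of members beside 41.1% of all tested in the embryo, and for 92.4% beside 40.4% in the micropylar endosperm. Members had to reach 500 in 2 other tissues, and the tested probe sets did not, so these shares are not matched for level. The 3587 probe sets with both minimum levels and neither fold had median signals of 1332 in the embryo proper and 1443 in the micropylar endosperm. For the members these medians were 1284 and 3829, so members were not brighter in the embryo than that set. The peripheral endosperm mean was above the general seed coat mean for 109 members, and the general seed coat was above for 49. In the group of 45 with the brightest embryo signal the general seed coat was the brighter source for 1 member, in the middle group for 18, and in the group with the dimmest embryo for 30. Median signals for the 45 were 11482 in the embryo proper and 11426 in the micropylar endosperm, and for the 55 they were 155 and 1367. Lower embryo calls numbered 2, 16 and 48 in the 3 groups, which were split by embryo level, so these counts follow from the split in part.

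Members of both origins were among those lower in the embryo. Of the 49 members brighter in the general seed coat, 29 (59.2%) were lower in the embryo proper than in the micropylar endosperm, and of the 109 brighter in the peripheral endosperm, 37 (33.9%) were. The difference between these shares was not tested. The median micropylar mean was 0.853 times the peripheral endosperm mean for the 109 and 0.905 times for the 49. As a share of the general seed coat mean, it was 420% for the 109 and 17% for the 49. Micropylar replicate 3, with the larger seed coat marker sum, read above replicate 1 for 32 of the 49 (median ratio 1.35) and 38 of the 109 (0.895). The part of seed coat RNA in the calls of the 49 was not tested. Across all 158, micropylar and peripheral endosperm means ranked members alike (rho 0.822), as they did across all tested probe sets (0.855). Peripheral endosperm and general seed coat means did not (rho -0.05 across the 158 and 0.642 across all tested), where choosing on both levels and ratios shapes the value. Pairs of tissues in these coefficients share the same probe sets, and no test is attached.

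**Figure D5:**
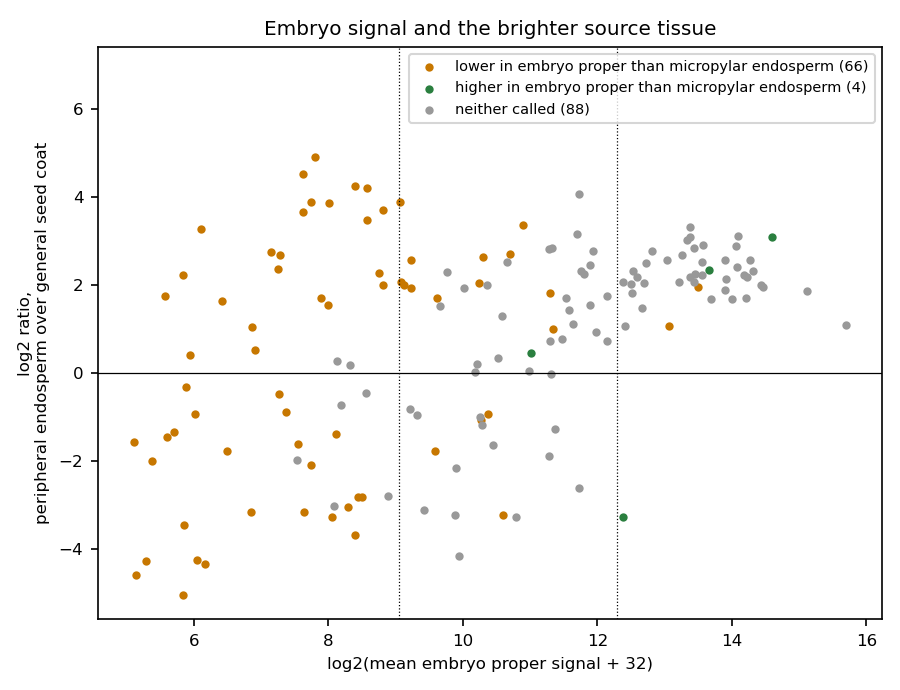
The 158 members by log2(mean embryo proper signal + 32) (horizontal) and log2 ratio of peripheral endosperm over general seed coat (vertical). Dotted lines mark embryo means of 500 and 5000; right of the second line 44 of 45 points lie above 0, and the orange points (lower in the embryo proper than the micropylar endosperm, 66) lie mostly to the left.

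Serial sections of whole seeds gave the members in the tissue mixture. That mixture includes the peripheral endosperm and the general seed coat, in which members were chosen to be bright, and the embryo was not used in the choice. The part of that choice in the counts against the embryo was not tested. Of the 158, 56 (35.4%) were higher in whole seeds than in the embryo proper, beside 6.01% of all tested probe sets, and 2 (1.27%) were lower, beside 1.28%. Against the micropylar endosperm, 11 members (6.96%) were higher in whole seeds, beside 5.38%, and 19 (12%) lower, beside 3.28%. These contrasts share arrays with each other and with the comparison of embryo and micropylar endosperm, and 52 members were both lower in the embryo proper than in the micropylar endosperm and higher in whole seeds than in the embryo proper. The counts against the micropylar endosperm rest on single arrays. They were 1 higher and 4 lower without whole seeds replicate 1, 2 and 1 without whole seeds replicate 2, 4 and 9 without micropylar endosperm replicate 1, and 9 and 8 without replicate 3. With either embryo array left out 7 were higher and 18 lower, and the 2 lower calls against the embryo became 1 without whole seeds replicate 1 and 0 without whole seeds replicate 2 or either embryo array.

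AT5G59170 read 12453 and 8796 in whole seeds against 68.7 and 107 in the embryo proper (log2 difference 6.47, SE 0.49, adjusted p 1.86e-07). SAG29 read 1511 and 1774 against 34.4 and 19.8 (log2 difference 4.83, SE 0.56, adjusted p 1.82e-05), and scpl48 read 8007 and 11017 against 484 and 651 (log2 difference 3.99, SE 0.36, adjusted p 1.16e-06). Whole seeds did not overlap the embryo for any of these 3 genes. The 4 named members higher in whole seeds than in the micropylar endosperm were SAG29 (log2 difference 1.86), AT5G11230 (1.52), AT2G16890 (2.19) and AT2G25450 (2.22). The last 3 were chosen after their values were seen, and AT5G11230 encodes a protein of the nucleotide-sugar transporter family. For SAG29 that call was lost when any of the 6 arrays was left out, with adjusted p between 0.0632 and 0.304. Among the genes lower in whole seeds, AT4G11300 read 647 and 769 against 6268 and 5315 in the micropylar endosperm (log2 difference -2.98, SE 0.50, adjusted p 0.00234). The whole-seed mean was above that of every compartment for 7 members, and at the median it was 39.1% of the highest compartment.

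Other probe sets that met some of the conditions were set beside the members. With both minimum levels and the endosperm fold but not the seed coat fold, 457 probe sets had 36.5% lower in the embryo proper than in the micropylar endosperm. With both levels and the seed coat fold alone, 45 had 28.9% lower, and with both levels and neither fold 3587 had 9.79% lower, close to the 9.09% of all tested. The members' 41.8% thus stood nearer to the share of the probe sets with the endosperm fold alone than to that of all tested, and is not called particular to the members. In whole seeds against the embryo proper, the shares that were higher were 35.4% of the members, 23.2% and 24.4% of the sets with the endosperm or seed coat fold alone and 4.77% of the set with neither. These differences in share were not tested.

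Members were spread over the genome. Of the 70 found in the RefSeq TAIR10.1 gene table, 18 lie on chromosome 1, 12 on chromosome 2, 15 on chromosome 3, 12 on chromosome 4 and 13 on chromosome 5. These are 25.7%, 17.1%, 21.4%, 17.1% and 18.6%, beside 25.6%, 14.96%, 20.3%, 14.7% and 23.6% of 8133 tested genes in that table. The plastid genome held 0 members and 69 tested genes, and 0 pairs of members lay within 5 genes of each other. The median gene length was 1796 bases for members and 2319 for tested genes.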

How the data were processed

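Signal intensities were deposited by the authors on a linear scale; GCOS is named, per the submitters' processing notes, with no version in the sources read. The values show a 2% trimmed mean of 500 on every array. Neither detection calls nor probe-level data entered. The members, gene lists and comparisons were chosen with earlier results of these data known, and nothing that these results already showed is given as independent support.

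Of 22810 probe sets, 64 controls were left out, and 14765 (64.9%) were tested, those exceeding the median of each array in both replicates of some group. Values were taken as log2(value + 32), which understates changes of dim probe sets, and all 14 arrays entered a single limma fit (version 3.58.1, under R 4.3.3) with an intensity trend and no block. The Benjamini-Hochberg adjustment ran over all tested. A single array decides much with 2 a group, so single arrays were left out in turn. The 6 arrays of embryo proper, micropylar endosperm and whole seeds were each left out of the fit. The 8 arrays used by the rule were each left out of the choice of members, and not of the fit. The offset, the filter on dim probe sets, quantile normalization, the arrays fitted and a replicate block were varied too, as were the offset, fold and minimum of the rule for members. The labels call the samples biological replicates and say no more of their source.

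Gene names are those of GEO's platform annotation, updated through the RefSeq TAIR10.1 table, from which no coordinates are given. Of 22746 probe sets, 13513 name 1 gene, 13436 of them found in that table. Genes named are the 12 members with the largest smaller ratio, the 8 brightest, up to 6 in each of 29 lists, the 8 with the largest called difference in each direction between embryo proper and micropylar endosperm, the 5 highest and 5 lowest on those arrays, and the 3 on each side of each threshold, 42 members in all. Others are named only where the text says they were chosen after their values were seen.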

Additional observations from a re-analysis of the deposited data

How the results depend on the processing

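The number of members was set by the rule, and it was 247 with a fold of 3, 84 with a fold of 6, 90 with a minimum of 1000 and 63 when every array, in place of means, had to meet the rule; without single arrays it ran from 130 (without general seed coat replicate 1) to 196 (without general seed coat replicate 2). Members lower in the embryo proper than in the micropylar endosperm numbered 51 to 63 without single arrays, and those higher 3 to 6, 7 with log2(value + 100) and 9 with only the 6 arrays of the 3 groups. Members higher in whole seeds than in the embryo proper numbered 42 to 54 without single arrays, and those lower 0 to 2, 1 with log2(value + 1), with no filter on dim probe sets or with quantile normalization, and 7 with only the 6 arrays. Against the micropylar endosperm, 1 to 9 were higher in whole seeds without single arrays and 3 with log2(value + 1), and 1 to 18 were lower without single arrays and 12 with log2(value + 1). With the replicate number as a block, which does not pair the samples (correlations of deviations -0.03 to 0.04 over 15 pairs of groups), counts were 6 higher and 53 lower for embryo proper against micropylar endosperm, 55 and 2 for whole seeds against embryo proper, and 8 and 7 for whole seeds against micropylar endosperm. No named gene with a call changed sign. Each of the 42 named genes was followed under each setting, and every such combination was counted. Between embryo proper and micropylar endosperm, 23 combinations lost a call, 1 gained a call and 480 stayed the same. The numbers were 26, 8 and 470 between whole seeds and embryo proper, and 28, 7 and 469 between whole seeds and micropylar endosperm. The cause of these changes was not tested. The arrays carry no detection calls here, so chalazal signals of a few units have no known order.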

Other observations

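General seed coat replicates differed more for members bright in the peripheral endosperm than for the others, which was not tested. Signal was lower in replicate 2 than in replicate 1 for 118 of 158 members, with a median ratio of 0.696, against 0.989 over all tested probe sets. Of the 109 members brighter in the peripheral endosperm, 91 were lower in replicate 2, with a median ratio of 0.576. Of the 49 brighter in the general seed coat, 27 were, with a median of 0.986. The peripheral endosperm markers AT3G62820 and SWEET11 summed to 607 on replicate 1 and 476 on replicate 2, and the 6 general seed coat markers to 161473 and 141132. The 6 embryo markers went the other way, at 152 and 356, with 6 and 5 of them under 100. The chalazal endosperm mean was under the chalazal seed coat mean for 78 of 158 members.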
